A study of Mus musculus with 15 samples.

Results

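Chromatin at 40 genes of DNA replication was described in EL4 cells, out of 21631 protein-coding genes annotated by RefSeq on chromosomes 1 to 19 and X of GRCm38.p6. The members were chosen by name for their roles in origin licensing, helicase activation, DNA synthesis and nucleotide supply, and a gene's window was its annotated span with 2 kb added to each side. EL4 is an established T lymphoma line of the mouse strain C57BL/6N, grown here without treatment, so that no condition was compared with another. The histone marks H3K4me3, H3K9ac, H3K27ac, H3K36me2 and H3K27me3 were mapped by ChIP-seq of formaldehyde-fixed cells and accessible DNA by ATAC-seq, in 2 replicates each, and the values used are the positions of called intervals in the 12 lists. Where the methods describe them, the replicates are technical, so differences between replicates measure the spread of the assay in this line and not a spread between cultures. A gene counted as carrying a mark when an interval of each replicate shared at least 1 bp with its window. For comparison, each member was set beside all other protein-coding genes whose span lay between 0.8 times its own and the inverse of that ratio (551 to 2691 genes per member), and the share or median over these was averaged over the 40 members. These comparisons are descriptions of 1 cell line, and no test was run.

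Replication starts at origins, where the origin recognition complex (ORC) together with Cdc6 and Cdt1 loads the ring-shaped MCM helicase. Cdc45 and the GINS complex then activate the helicase, primase and the replicative polymerases copy the strands, and the clamp PCNA, loaded by replication factor C (RFC), tethers the polymerases. Many of these genes are known to be transcribed at the transition from G1 to S phase under control of E2F factors. H3K4me3, H3K9ac and H3K27ac are known as marks of active promoters, with H3K27ac also at enhancers, H3K36me2 covers broad stretches of intergenic and genic chromatin, and H3K27me3 is deposited by Polycomb at silenced genes.

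The promoters of 7 members are shown because the results below turn on them. Orc1, Cdc6 and Mcm7 stand for licensing genes whose promoters hold an E2F motif, Pcna had no interval at its own start, Prim1 had the narrowest H3K4me3 interval and Tyms no ATAC-seq interval, and Rrm2 had the widest H3K4me3 interval. Each sequence is the RefSeq entry on GRCm38.p6 from 250 bases before to 50 bases from the annotated start, written 5′ to 3′ along the gene, and capitals mark E2F and CCAAT motifs on either strand. The positions are chr4:108579204-108579503 (plus strand) for Orc1, chr11:98907901-98908200 (plus) for Cdc6, chr5:138171834-138172133 (minus) for Mcm7, chr2:132253131-132253430 (minus) for Pcna, chr10:128014965-128015264 (plus) for Prim1, chr5:30073576-30073875 (minus) for Tyms and chr12:24708004-24708303 (plus) for Rrm2.
Orc1: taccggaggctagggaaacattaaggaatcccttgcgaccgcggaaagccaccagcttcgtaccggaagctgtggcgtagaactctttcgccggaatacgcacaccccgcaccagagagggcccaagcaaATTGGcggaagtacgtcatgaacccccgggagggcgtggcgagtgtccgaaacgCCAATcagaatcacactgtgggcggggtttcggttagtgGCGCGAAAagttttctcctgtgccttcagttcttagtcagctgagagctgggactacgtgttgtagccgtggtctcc
Cdc6: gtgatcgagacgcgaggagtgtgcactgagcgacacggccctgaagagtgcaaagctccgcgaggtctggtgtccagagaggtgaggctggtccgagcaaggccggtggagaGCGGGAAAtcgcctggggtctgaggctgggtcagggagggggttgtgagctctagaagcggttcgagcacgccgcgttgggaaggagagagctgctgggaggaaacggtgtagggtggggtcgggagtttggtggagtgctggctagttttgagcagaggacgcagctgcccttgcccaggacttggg
Mcm7: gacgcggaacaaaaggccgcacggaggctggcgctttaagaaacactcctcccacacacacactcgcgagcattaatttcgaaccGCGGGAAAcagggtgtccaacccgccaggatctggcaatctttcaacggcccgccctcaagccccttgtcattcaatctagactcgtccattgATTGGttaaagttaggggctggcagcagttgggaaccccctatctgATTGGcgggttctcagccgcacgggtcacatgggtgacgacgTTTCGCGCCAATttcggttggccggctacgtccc
Pcna: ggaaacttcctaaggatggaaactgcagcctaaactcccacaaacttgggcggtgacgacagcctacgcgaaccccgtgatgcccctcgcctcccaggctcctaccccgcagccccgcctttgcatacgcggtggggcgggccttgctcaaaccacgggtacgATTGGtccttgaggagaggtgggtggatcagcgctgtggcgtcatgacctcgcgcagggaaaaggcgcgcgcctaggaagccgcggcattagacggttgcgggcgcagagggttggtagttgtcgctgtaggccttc
Prim1: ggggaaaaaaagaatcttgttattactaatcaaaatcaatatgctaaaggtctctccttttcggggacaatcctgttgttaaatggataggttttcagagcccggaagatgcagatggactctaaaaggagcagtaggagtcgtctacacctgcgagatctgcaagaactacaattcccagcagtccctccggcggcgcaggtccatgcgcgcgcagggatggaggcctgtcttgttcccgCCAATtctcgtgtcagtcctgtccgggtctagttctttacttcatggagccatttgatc
Tyms: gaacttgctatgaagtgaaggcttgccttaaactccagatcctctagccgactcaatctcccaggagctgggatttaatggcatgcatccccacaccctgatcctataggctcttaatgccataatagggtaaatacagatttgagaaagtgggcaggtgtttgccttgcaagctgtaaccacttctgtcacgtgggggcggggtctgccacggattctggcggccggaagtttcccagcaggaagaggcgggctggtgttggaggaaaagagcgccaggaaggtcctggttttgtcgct
Rrm2: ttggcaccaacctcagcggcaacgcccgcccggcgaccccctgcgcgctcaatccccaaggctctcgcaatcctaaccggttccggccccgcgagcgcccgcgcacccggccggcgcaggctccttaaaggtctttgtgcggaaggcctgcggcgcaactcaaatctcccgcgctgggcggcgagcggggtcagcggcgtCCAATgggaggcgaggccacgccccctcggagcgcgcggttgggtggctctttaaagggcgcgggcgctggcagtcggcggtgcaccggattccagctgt

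Promoter entries were found for 33 of the 40 members, and Gins1, Gins2, Gins4, Mcm4, Pole, Prim2 and Rfc2 had none. An E2F motif, searched on both strands as TTTGGCGC, TTTCCCGC, TTTCGCGC or TTTGCCGC, was in 12 of 33 member promoters (36.4%). Of the 17241 other protein-coding promoters of the same length, 2.91% held one, and of the 7463 of these with H3K4me3 over the start in both replicates, 4.61% did. The 12 were Orc1, Orc3, Cdc6, Cdt1, Mcm3, Mcm5, Mcm6, Mcm7, Gins3, Pold1, Pole2 and Rfc3, so that 8 of them encode parts of the pre-replicative complex. That role holds 14 of the 40 members, of which only Mcm4 had no promoter entry. The 18 matches in these promoters lay at positions -165 to 39 relative to the start, and 7 of them lay downstream of it. CCAAT, or its reverse ATTGG, was in 22 of 33 (66.7%), against 39.5% of all other promoters and 39.9% of those with H3K4me3 over the start. In Mcm7 the last E2F motif and the last CCAAT overlap, as the unbroken run of capitals shows. The GC box GGGCGG was in 23 of 33 (69.7%), which was near the 69.1% of other promoters with H3K4me3 over the start. TTTGAA or TTCGAA, the letters of the cell cycle homology region, were in 6 of 33 (18.2%), against 17.7% of all other promoters and 13.9% of those with H3K4me3 over the start. TATAAA was in 2, those of Cdc45 and Fen1 (6.06%), against 13.4% of all other promoters and 5.73% of those with H3K4me3 over the start. A motif match here is a match of letters only.

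Marks of active promoters were at nearly all members and H3K27me3 at none. H3K4me3 was in both replicates at 39 of 40 members (97.5%), against 57.3% of genes of similar length and 51.7% of all other protein-coding genes. H3K9ac was also at 39, against 56.2% and 50.5%, and H3K27ac at 39, against 57.2% and 51.5%. ATAC-seq intervals were at 37 members (92.5%), where the corresponding shares were 52.0% and 47.1%. H3K36me2 was at 34 members (85.0%), against 51.6% and 46.1%. No member had an H3K27me3 interval in either replicate, whereas 15.0% of genes of similar length and 18.1% of all others had one in both. Each replicate alone gave 39 members for H3K4me3 and for H3K9ac, 39 and 40 for H3K27ac, 37 and 38 for ATAC-seq, and 34 and 38 for H3K36me2, so that the difference from genes of similar length was larger than that between replicates for each of these sets.

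**Figure D1:**
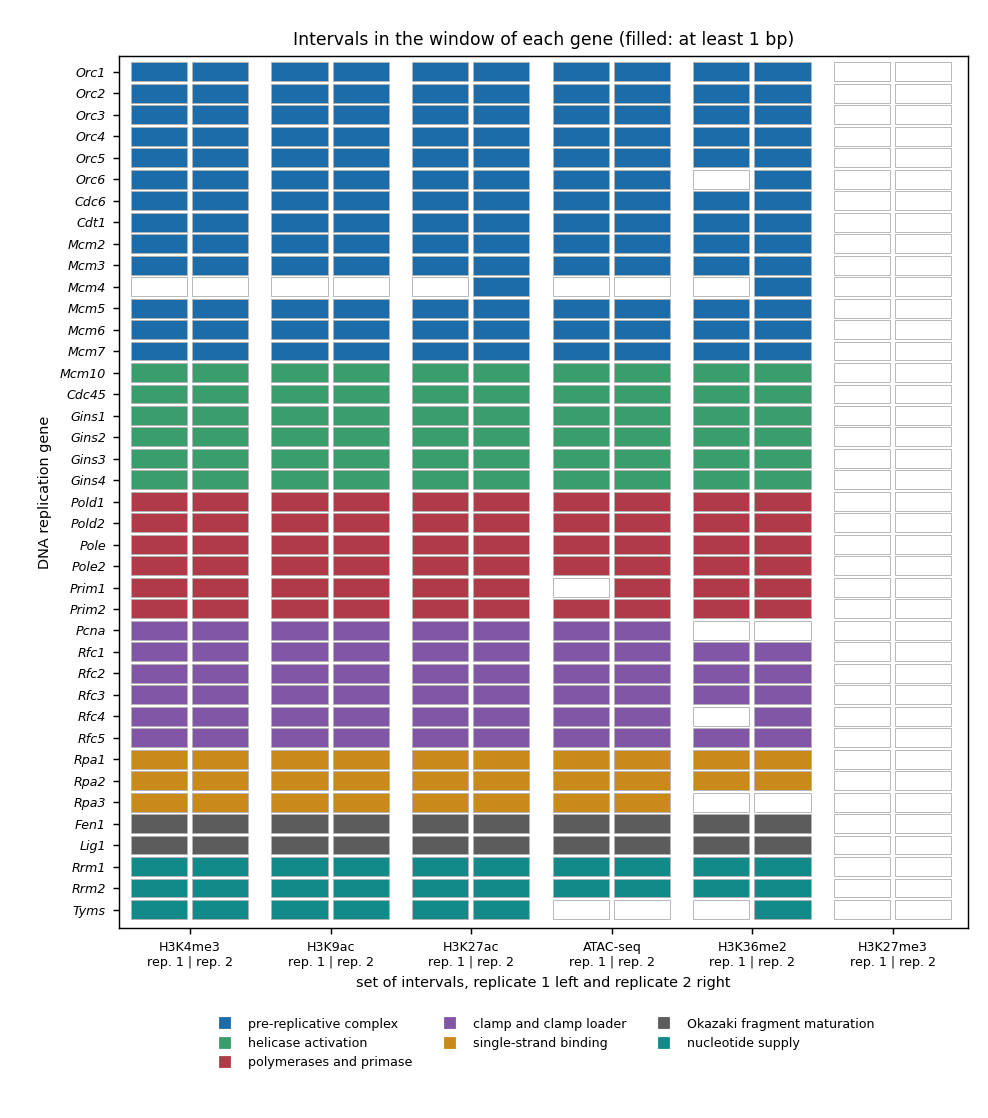
Each row is 1 of the 40 DNA replication genes, ordered and coloured by role, and each pair of columns holds replicates 1 and 2 of a set, with a filled box where an interval lies in the window of the gene. All H3K27me3 boxes are empty, and Mcm4 is the row without H3K4me3, H3K9ac and ATAC-seq.

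Genes with H3K4me3 gave a closer comparison than genes of similar length alone. Among the 11165 other protein-coding genes with H3K4me3 in both replicates, 96.7% had H3K9ac, 96.9% H3K27ac and 88.6% ATAC-seq. Of the 39 members with H3K4me3, 39, 39 and 37 had these sets, which was near that background. H3K36me2 was at 34 of these 39, against 76.9% of all genes with H3K4me3 and 77.1% of those of similar length. H3K27me3 was at 0 of 39, against 6.78% and 4.11%. All 10 lists other than H3K27me3 held an interval at 33 of 40 members (82.5%), compared with 41.2% of genes of similar length.

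**Figure D2:**
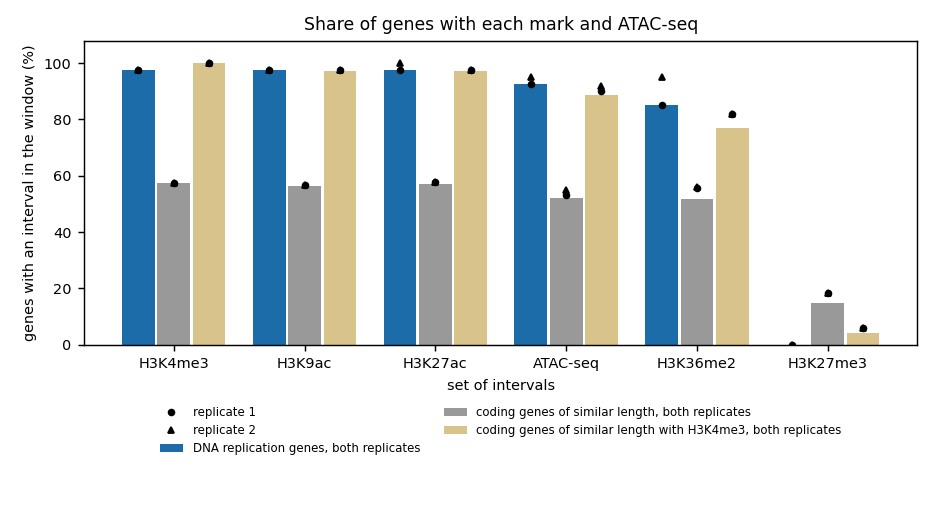
Bars give the percent of genes with an interval in both replicates for the 40 DNA replication genes, for protein-coding genes of similar length and for those of similar length with H3K4me3, and points give each replicate alone. The members stand about 40 percentage points above genes of similar length for H3K4me3, H3K9ac, H3K27ac and ATAC-seq. For H3K9ac, H3K27ac and ATAC-seq they are close to those with H3K4me3, whose H3K4me3 bar is 100% by selection.

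A window can also hold the promoter of a neighbour. Another protein-coding gene reached into the window of 23 of 40 members (57.5%), against 41.8% of genes of similar length. The intervals were therefore also placed against the annotated start, taken as the farthest upstream of a gene's promoter entries. H3K4me3, H3K9ac and H3K27ac each lay over the start in both replicates in 31 of 33 members, where 49.8%, 47.5% and 47.4% of genes of similar length had them. The exceptions were Pcna and Lig1. ATAC-seq lay over the start in 26 of 33, against 41.5% of genes of similar length and 82.6% of those with H3K4me3 over the start. Counting any annotated start of a gene, which was chosen after seeing the data, gave 32 of 33 for each of the 3 marks and 29 of 33 for ATAC-seq. By the same rule H3K4me3 was at 51.0% of genes of similar length, H3K9ac at 48.9%, H3K27ac at 48.8% and ATAC-seq at 43.1%. Of the 7 members without a promoter entry, 6 had H3K4me3 over one end of the gene in both replicates, and Mcm4 did not. Which end is the start was not used for these 7, and no share of other genes was computed for either end.

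Pcna, which encodes the sliding clamp, was counted for 4 sets only through its neighbour. The gene lies on the minus strand of chromosome 2 (chr2:132249286-132253180) and starts at 132253180, in the promoter sequence given above. Its H3K4me3 intervals began 4.79 kb downstream of that start in replicate 1 and 4.72 kb in replicate 2, past the 3′ end of the gene and over Tmem230. H3K27ac began 4.70 and 4.67 kb and ATAC-seq 5.27 and 5.16 kb downstream of the start. Inside Pcna itself, only replicate 1 of H3K9ac held an interval, of 300 bp at chr2:132250043-132250342, and H3K36me2 covered none of the window in either replicate. None of the 12 lists held an interval over the start of Pcna.

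Mcm4, a subunit of the MCM helicase ring at chr16:15623897-15637400, had no H3K4me3, H3K9ac or ATAC-seq interval in its window in either replicate. The nearest H3K4me3 interval lay 28.9 kb away in both replicates, and the nearest ATAC-seq interval 29.2 kb away. An H3K27ac interval of 297 bp was in the window in replicate 2 only, 1073 bp beyond the gene and within Prkdc, which starts 44 bp from Mcm4 in the annotation. Prkdc likewise had no H3K4me3, H3K9ac or ATAC-seq interval in either replicate. H3K36me2 covered 0% of the window of Mcm4 in replicate 1 and 28.6% in replicate 2. The 5 other MCM subunits of the ring carried every set but H3K27me3 in both replicates.

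Tyms, which makes thymidylate, had H3K4me3 over its start in both replicates (2149 and 2048 bp) and no ATAC-seq interval within 81.0 kb of the gene in either. Prim1, the catalytic subunit of primase, had an ATAC-seq interval of 260 bp over its start in replicate 2, whereas the nearest one in replicate 1 lay 5.34 kb outside the gene. For Cdc6, which loads the helicase, the ATAC-seq intervals ended 164 and 168 bp before the start, upstream of the E2F motif marked in its promoter. The annotated span of Cdc6 begins farther upstream, at chr11:98907709, and the ATAC-seq intervals of both replicates lay over that position. The flap endonuclease gene Fen1 had its ATAC-seq intervals 224 and 208 bp downstream of the start. In the ORC subunit gene Orc4, an ATAC-seq interval began 517 bp downstream in replicate 1 and 522 bp downstream in replicate 2. Replicate 2 also held a separate one at 85 to 292 bp. In the DNA ligase gene Lig1, the start taken here lies upstream of 2 other promoter entries, and ATAC-seq began 1.14 and 1.09 kb downstream of it.

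**Figure D3:**
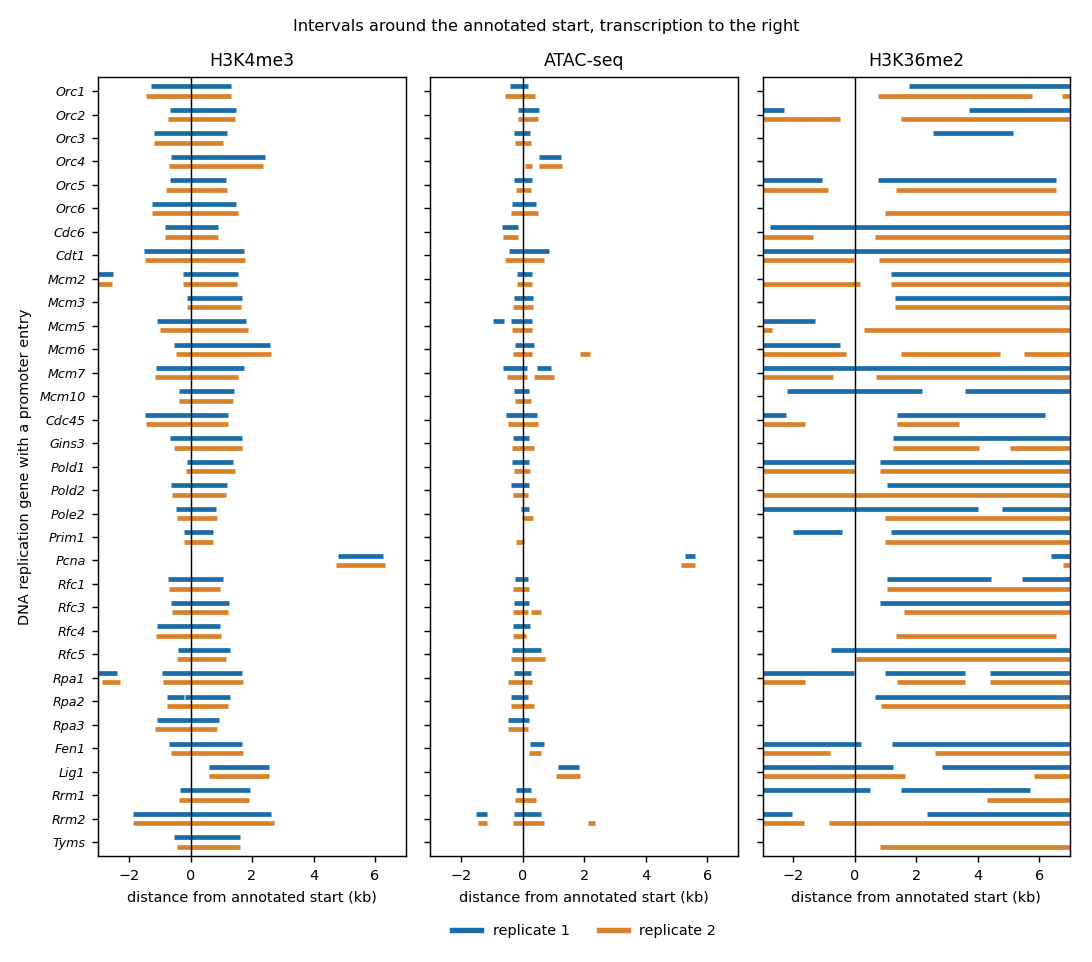
Horizontal bars are the intervals of replicate 1 (blue) and replicate 2 (orange) of H3K4me3, ATAC-seq and H3K36me2 around the annotated start of 33 DNA replication genes, with the distance in kb on the axis and transcription to the right. H3K4me3 lies over the start in 31 of 33 genes and at Pcna begins over 4 kb downstream, while H3K36me2 lies over the start in both replicates in 2 of 33.

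H3K4me3 over the start reached farther into the gene than away from it. Over 31 members the median reach was 674 bp upstream and 1406 bp downstream, compared with 689.1 and 1150 bp in genes of similar length with the mark over the start. The downstream side was the longer one in 26 of 31 members, against 78.7% of the comparison genes. H3K9ac (525 bp upstream and 1208 bp downstream) and H3K27ac (602 and 1134 bp) had the same form, with the downstream side longer in 27 and 26 of 31 members. In genes of similar length with these marks over the start, it was longer in 79.8% and 76.2%. ATAC-seq did not, with median reaches of 323.8 and 283 bp and the downstream side longer in 11 of 26. Genes of similar length with ATAC-seq over the start were near these values, with 309.5 and 281.8 bp and the downstream side longer in 46.1%.

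The width of the widest H3K4me3 interval was close to that of other genes with the mark. Over 39 members it had a median of 1988 bp, from 943.5 to 4543 bp, where genes of similar length with H3K4me3 had a median of 1919 bp. The replicates gave 1942 and 2009 bp for the members, and 1919 and 1911 bp for genes of similar length. With 21 of 39 members above the median of their own comparison genes, widths lay on either side of it. Within a member the replicates differed by a median of 63 bp and at most by 522 bp (Rpa2, where replicate 1 split the interval), so that the order between distant members was beyond that spread.

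Median widths differed by role, and the ranges of the roles overlapped. The 13 members of the pre-replicative complex with H3K4me3 had a median of 2682 bp, and 9 of them were above their comparison genes. Among these 9, the widest intervals of Orc1, Orc3, Orc4, Orc6 and Mcm7 also touched another protein-coding gene, and those of the others did not. The helicase activators had a median of 1878 bp (3 of 6 above), the polymerases and primase 1666 bp (1 of 6 above), and the clamp and its loader 1685 bp (1 of 6 above). Single-strand binding genes had a median of 2010 bp, Okazaki fragment maturation genes 2146 bp and nucleotide supply genes 2280 bp. Widths ran from 1722 to 3257 bp in the pre-replicative complex and from 943.5 to 2238 bp in the polymerases and primase.

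Rrm2, the small subunit of ribonucleotide reductase, had the widest interval of the members, with 4489 bp in replicate 1 and 4597 bp in replicate 2. Its mean lay at the 97.3 percentile of all protein-coding genes with H3K4me3, and it reached 1876 bp upstream and 2666 bp downstream of the start. Cdt1, a licensing factor, followed with 3252 and 3262 bp, and Mcm6 with 3119 and 3072 bp. At the other end, Prim1 had 965 and 922 bp, at the 7.65 percentile. The GINS subunit genes Gins4 (1059 and 1191 bp) and Gins1 (1215 and 1121 bp) were the next narrowest. Rrm1, the large subunit of the same reductase as Rrm2, had 2282 and 2279 bp.

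**Figure D4:**
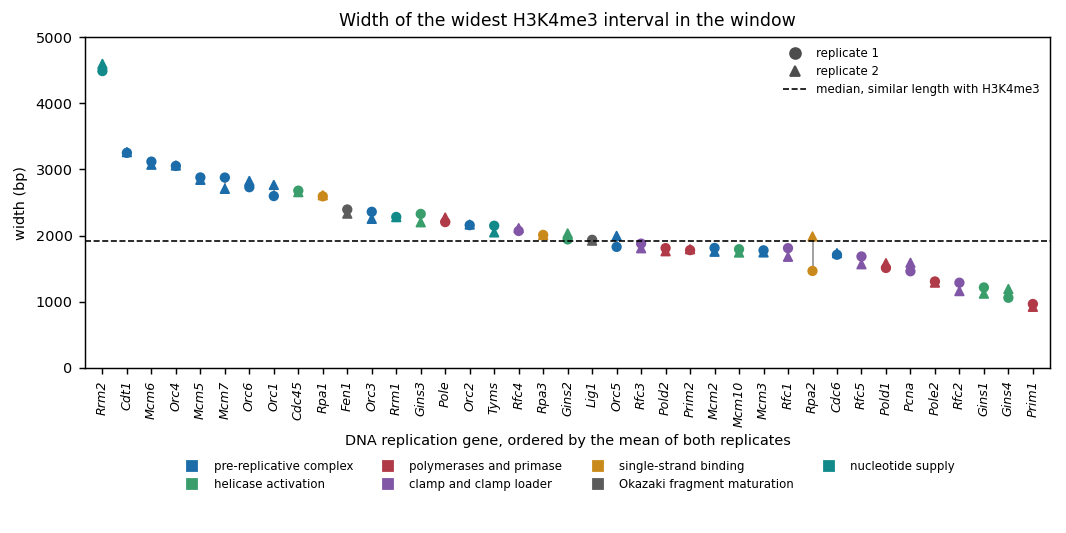
Points give the width in bp of the widest H3K4me3 interval in the window for replicate 1 (circles) and replicate 2 (triangles) of the 39 DNA replication genes that have one, coloured by role, and the dashed line is the median of genes of similar length with H3K4me3. Rrm2 stands apart at 4489 and 4597 bp and Rpa2 shows the largest gap between replicates.

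In 13 members the widest H3K4me3 interval also touched another protein-coding gene in both replicates, such as Prpf38a at Orc1, Ap4m1 at Mcm7 and Tmem258 at Fen1. Rrm2, Cdt1 and Mcm6, the 3 members with the widest intervals, were not among them. The widest interval had a median of 2364 bp in these 13 members and 1786 bp in the other 26. Of these 13, 11 were above the median of their comparison genes, and of the other 26, 10 were. A wider interval reaches a neighbour more readily, so these groups were not formed independently of width. The part of neighbouring genes in the width of these intervals was not tested.

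H3K36me2 covered more of the members than of genes of similar length with H3K4me3. The median cover of the window was 74.0% over 40 members (76.2% in replicate 1 and 73.1% in replicate 2), against 15.3% in genes of similar length and 52.3% in those of similar length with H3K4me3. Cover was above the median of their own comparison genes with H3K4me3 in 29 of the 39 members that have the mark. At least 50% was covered in 29 members (72.5%) and at least 80% in 14 (35.0%), whereas 52.1% and 20.7% of genes of similar length with H3K4me3 had as much. Single genes were less certain than the median, since the replicates differed by a median of 10.7 percentage points and by over 20 points in 13 members.

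By role, median cover was 84.8% in the polymerases and primase, where 6 of 6 genes were above their comparison genes, 80.9% in the single-strand binding genes and 78.8% in the clamp and its loader. Okazaki fragment maturation genes had 75.2%, helicase activators 69.4%, nucleotide supply genes 65.0% and the pre-replicative complex 61.7%. Within the pre-replicative complex, cover ran from 14.3 to 95.6%, so that this role held both the highest value and some of the lowest.

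Cdt1 was covered by 100% in replicate 1 and 91.2% in replicate 2, and Pold1, the catalytic subunit of polymerase delta, by 92.7% and 96.0%. Mcm7 had 100% and 87.8%, Cdc6 100% and 85.2%, and Rpa1, the large subunit of replication protein A, 92.4% and 90.8%. These 5 members were chosen as the highest in cover, so their place above the 52.3% of genes of similar length with H3K4me3 is no separate support. Pcna and Rpa3, the smallest subunit of replication protein A, had 0% in both replicates, and they are the shortest members, with spans of 3895 and 3206 bp. Tyms (0 and 24.5%), Mcm4 (0 and 28.6%) and Rfc4, a clamp loader subunit (0 and 29.2%), had no cover in replicate 1. Orc6 had the largest gap, with 0% in replicate 1 and 64.8% in replicate 2, and was the sixth member without the mark in both.

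**Figure D5:**
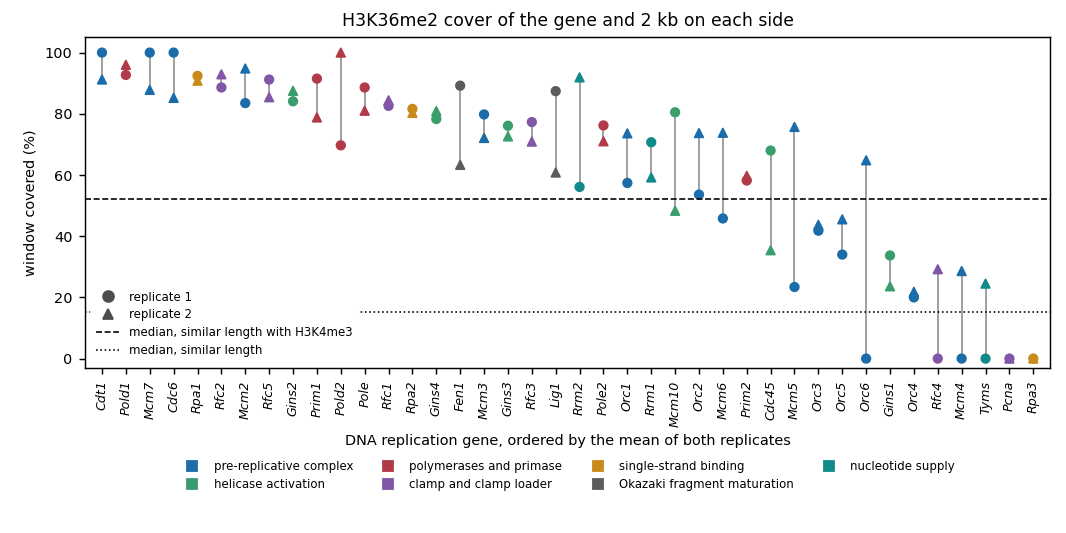
Points give the percent of the window covered by H3K36me2 in replicate 1 (circles) and replicate 2 (triangles) for the 40 DNA replication genes, coloured by role, with lines at the medians of genes of similar length (dotted, 15.3%) and of those with H3K4me3 (dashed, 52.3%). Most members lie above the dashed line, and Orc6 has the longest line between replicates.

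Along the gene, H3K36me2 lay past the start rather than over it. Its intervals were over the annotated start in both replicates in 2 of 33 members, Pold1 and Lig1 (6.06%), against 6.88% of genes of similar length. The 2 kb before the start had a median cover of 30.0%, the first 2 kb of the gene 40.8%, the rest of the gene 81.5% and the 2 kb after the gene 90%. In genes of similar length with H3K4me3 over the start these values were 1.70%, 21.4%, 66.9% and 51.2%, so that the members were higher in the 3 segments from the start onward. Cover was higher past the first 2 kb than within it in 28 of 33 members, against 74.7% of the comparison genes. Before the start the medians differed in the mean of replicates only, since in each replicate alone they were 0% in the members and 0% in the comparison genes.

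Acetylation away from H3K4me3 was present at a few members. H3K27ac intervals inside the window that touched no H3K4me3 interval were found in both replicates at 8 of 40 members (20%), against 10.2% of genes of similar length and 15.1% of those with H3K4me3. Prim2, the regulatory subunit of primase and by far the longest member at 216 kb, held 6 of them. Mcm2 held 3, Cdc6 and Pold1 held 2 each, and Orc5, Rfc3, Rpa1 and Rrm2 held 1 each. ATAC-seq intervals of this kind were at Cdc6 and Lig1 only (5.00%, against 4.24%).

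Other genes of the pathway looked much the same in the promoter marks. Of 38 further replication genes, among them regulators, polymerase accessory subunits, histone chaperones and nucleotide enzymes, 37 had H3K4me3, 37 H3K9ac, 37 H3K27ac, 36 ATAC-seq and 29 H3K36me2 in both replicates, and none had H3K27me3. Their median H3K4me3 width was 2072 bp. Their median H3K36me2 cover was 47.4%, below the 74.0% of the members and near the 48.5% of all other protein-coding genes with H3K4me3. These 38 genes were not matched for length, with a median span of 23.8 kb against 16.2 kb in the members. Tk1, thymidine kinase of the salvage pathway, was the one without any of the 3 promoter marks or ATAC-seq in either replicate, and yet H3K36me2 covered 91.2 and 82.1% of its window. Of 30 genes of mitosis, another group of cell cycle genes, 29 had H3K4me3, 30 H3K9ac, 29 H3K27ac, 29 ATAC-seq and 23 H3K36me2, with a median width of 2159 bp and a median cover of 58.5%. Aurka, a mitotic kinase, was the exception, with H3K9ac in both replicates and no interval of the other sets.

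The label of the cells was checked against lineage genes. All 8 T lineage genes examined (Cd3d, Cd3e, Cd3g, Lck, Thy1, Cd5, Zap70 and Lat) had the 3 promoter marks in both replicates, and 7 had ATAC-seq. Of 4 B lineage genes 2 had H3K4me3 (Cd79a and Pax5), of 4 myeloid genes 3 (Lyz2, Itgam and Spi1), and of 2 hepatocyte genes none. The named B lineage and myeloid genes also had H3K9ac and H3K27ac in both replicates, and Cd79a, Lyz2 and Spi1 had ATAC-seq in both. These sets were thus not limited to the T lineage genes. The intervals carry no scores and the reads behind them are unknown, so that a missing interval is a call not made at this depth and not a measured absence of the mark.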

How the data were processed

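ChIP-seq of 5 histone marks and ATAC-seq were performed on EL4 cells in 2 replicates each. The authors aligned reads to GRCm38 with STAR 2.5, kept unique alignments, treated duplicates with Picard and called intervals in each replicate (macs2 for narrow marks and ATAC-seq, Epic for H3K36me2 and H3K27me3, with input as the ChIP-seq control). The 12 deposited lists give chromosome, start and end in bp without a count or signal, so the depth is unknown. Reads on sex chromosomes were discarded according to the methods, yet the lists hold intervals on X, which were kept. Libraries of input and of RNA were not analysed here.

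Genes, promoters and positions came from RefSeq on GRCm38.p6. H3K4me3 width (widest interval touching the window) and H3K36me2 cover (percent of the window) are means of the replicates, computed with Python 3.11.15, numpy 2.4.6 and pandas 2.3.3. Counting was tested on simulated data. Members and gene lists were chosen with earlier results of these data known. Genes were named for lacking an active mark or ATAC-seq, as the 3 widest and narrowest for H3K4me3, as the 5 highest and lowest in H3K36me2 cover, or by role (1 or 2 each). Orc4, Orc5, Orc6, Rfc3, Prim2, Tk1, Aurka and neighbouring genes were added after their values were seen. No test was made between groups. Other settings changed the flank, replicate rule, overlap, interval width and comparison genes.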

Additional observations from a re-analysis of the deposited data

How the results depend on the processing

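No paired analysis was possible because no result comes from a test. Of 48 counts of members under other settings, 2 moved by over 1.5 times: only ATAC-seq intervals of at least 500 bp left 24 members in place of 37, and a flank of 5 kb gave 1 member with H3K27me3, Prim2, in place of 0. No difference from genes of similar length changed sign. In the main setting the differences, in percentage points, were 40.2 for H3K4me3, 41.3 for H3K9ac, 40.3 for H3K27ac, 40.5 for ATAC-seq and -15.0 for H3K27me3. The spread between replicates was the standard deviation of the values from each replicate alone. For H3K9ac both of these were 40.9, so that very small changes exceeded it. The differences moved by more than this spread as follows.

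With no flank they were 39.7 for H3K4me3, 40.9 for H3K9ac and -13.4 for H3K27me3. With 5 kb they were 37.4 for H3K4me3, 38.6 for H3K9ac, 37.4 for H3K27ac, 37.5 for ATAC-seq and -14.8 for H3K27me3. With an interval in at least 1 replicate they were 39.8, 40.5, 38.9 and -21.8 for H3K4me3, H3K9ac, ATAC-seq and H3K27me3. With a base pair covered in both replicates they were 41.3 for H3K9ac, unchanged at the digits shown, and -13.9 for H3K27me3. Leaving out each replicate in turn, where for H3K27ac the lower value and for ATAC-seq the higher one stayed within that spread, gave 39.9 to 40.1 for H3K4me3, 40.9 either way for H3K9ac, 39.8 to 42.3 for H3K27ac, 39.3 to 40.2 for ATAC-seq and -18.5 to -18.3 for H3K27me3. An overlap of 200 bp gave 40.4, 41.4 and -14.8 for H3K4me3, H3K9ac and H3K27me3, and intervals of at least 500 bp gave 41.8, 43.5, 42.9 and 29.9 for H3K4me3, H3K9ac, H3K27ac and ATAC-seq. Against all other protein-coding genes they were 45.8, 47.0, 46.0, 45.4 and -18.1 for H3K4me3, H3K9ac, H3K27ac, ATAC-seq and H3K27me3, against spans of 0.5 to 2 times a member 40, 41.1 and -15.2 for H3K4me3, H3K9ac and H3K27me3, and against autosomal genes, chosen after seeing the data, 39.4, 40.5, 39.8 and -15.5 for H3K4me3, H3K9ac, ATAC-seq and H3K27me3. The difference for H3K36me2 stayed within its replicate spread under each of these.

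Median width and cover were recomputed under other settings for the members only, and not for the comparison genes. Median H3K4me3 width was 2091 bp when all intervals were summed, 2162 bp with 5 kb and 2057 bp for merged replicates. Median H3K36me2 cover was 64.6% with 5 kb, 60.5% for base pairs covered in both replicates and 83.0% in either. The cause was not tested for any of these. The lists have no scores, so depth limits every missing interval, and 2 technical replicates of 1 line limit what a difference between genes can say about T cells or about replication genes elsewhere.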
